A study of Rattus norvegicus with 18 samples.

Results

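Pcsk2, Scg5, Cpe and Pcsk1n, which encode prohormone processing enzymes and the proteins that assist or restrain them, were followed in medullary thyroid carcinomas of MENX rats. They were chosen by gene symbol, with the probe set of highest mean for each gene. All 4 were found among the 14506 genes with a symbol of their own, each had 1 probe set, and all 4 were among the 11370 genes tested. Pcsk1 was looked for as well, and no probe set carried that symbol in the annotation used here, so it was not analysed here.

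Peptide hormones are made as inactive precursors that are sorted into secretory granules and cut there. The convertases encoded by Pcsk1 and Pcsk2 cut precursors after pairs of basic residues, the carboxypeptidase encoded by Cpe removes the basic residues left at the new ends, and some peptides, calcitonin among them, are then amidated. Scg5 encodes a granule protein that binds the precursor of the Pcsk2 enzyme and is needed for its activation, and Pcsk1n encodes proSAAS, a granule protein that can inhibit the Pcsk1 enzyme. C cells, from which medullary carcinoma arises, make calcitonin by this route from the product of Calca.

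RNA of 18 tumours was measured on Affymetrix arrays, 6 in each of 3 groups, and all animals were untreated rats of the Sprague–Dawley white eye/Wistar–Kyoto strain that carried a mutation of Cdkn1b, the gene of p27Kip1. The groups were homozygous mutants at 9 months, heterozygous mutants at 9 months and heterozygous mutants at 18 months. There was no group of homozygous animals at 18 months, no animal without the mutation and no normal thyroid. Each array has its own animal code in the labels, so the spread between arrays is taken as that between animals.

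Values are RMA expression values on the log2 scale, on which a difference of 1 is a doubling. The probe sets are read against themselves across tumours. Array medians lay between 7.55 and 7.65, and the brightest probe set of an array averaged 14.46. C cell markers were high, with Calca between 13.75 and 14.12 in the 18 tumours. Markers of neighbouring tissue were also high in places, such as thyroglobulin (Tg, 11.08 to 14.37), parathyroid hormone (Pth, 6.02 to 14.26) and the muscle myosin Myh4 (6.30 to 12.38), so the specimens held more than tumour cells. A first principal component with 63.9% of the variance placed replicates 1, 2, 3 and 6 of 18 months at 35.8 to 69.9. Homozygous replicate 3 lay at 24.0 and replicates 5 and 4 of the 18-month group at 4.21 and -11.7, while the other 11 tumours of 9 months lay between -28.6 and -9.68. In bulk RNA, fewer cells of a type and less RNA per cell cannot be told apart.

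The 250 bases before the starts of the 4 genes are shown, 5′ to 3′ on the strand of the gene, from RefSeq (GRCr8). They are given as a description, and their part in the expression of these genes was not tested. Capitals mark TGACG on either strand, the core letters of the cAMP response element. The regions are chr3:151333688-151333937 (plus strand) for Pcsk2, chr3:121042796-121043045 (minus strand) for Scg5, chr16:29796457-29796706 (plus strand) for Cpe and chrX:17255406-17255655 (minus strand) for Pcsk1n. The start used for Scg5 lies inside the annotated span of that gene, which reaches to 121042881, so part of its window lies within the gene.
Pcsk2: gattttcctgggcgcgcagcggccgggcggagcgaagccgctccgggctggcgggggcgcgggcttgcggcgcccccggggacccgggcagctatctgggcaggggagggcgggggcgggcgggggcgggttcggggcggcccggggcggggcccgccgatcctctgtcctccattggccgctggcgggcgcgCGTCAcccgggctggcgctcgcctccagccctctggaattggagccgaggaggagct
Scg5: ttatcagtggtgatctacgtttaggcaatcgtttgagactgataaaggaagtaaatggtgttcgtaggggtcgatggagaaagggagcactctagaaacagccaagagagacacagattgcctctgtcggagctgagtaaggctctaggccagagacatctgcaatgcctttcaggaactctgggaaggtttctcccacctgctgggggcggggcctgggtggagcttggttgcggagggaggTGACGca
Cpe: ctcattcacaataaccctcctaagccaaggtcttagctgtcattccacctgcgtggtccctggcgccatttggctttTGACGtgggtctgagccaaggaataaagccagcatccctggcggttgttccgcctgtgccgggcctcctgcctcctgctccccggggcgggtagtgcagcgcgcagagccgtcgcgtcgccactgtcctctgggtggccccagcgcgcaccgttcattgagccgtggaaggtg
Pcsk1n: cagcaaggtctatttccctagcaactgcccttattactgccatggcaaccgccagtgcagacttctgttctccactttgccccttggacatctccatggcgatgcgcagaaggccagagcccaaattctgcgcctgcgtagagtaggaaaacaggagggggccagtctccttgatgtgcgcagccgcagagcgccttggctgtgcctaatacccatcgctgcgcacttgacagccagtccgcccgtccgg

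The letters TGACG were found once before Pcsk2 (beginning 57 bases before the start), once before Scg5 (7 bases) and once before Cpe (173 bases), and 0 times before Pcsk1n. They occur in 18.2% of 33469 RefSeq regions of the same kind. The GC box GGGCGG, found in 30.5% of those regions, was present before all 4 genes, with 7 matches, some of them overlapping, before Pcsk2 and 1 before each of the others. The E-box CANNTG, found in 65.5%, matched at 2 positions before Scg5, Cpe and Pcsk1n each and at 0 before Pcsk2. The TATA box TATAAA, found in 12.9%, was absent from these 4 windows. Both strands were searched in each case. For Scg5 the TGACG, the GC box and the nearer E-box lie in the part of its window within the annotated gene. The window before Pcsk2 was 79.6% G and C, more than 98.8% of the regions, against 53.2% for Scg5, 63.2% for Cpe and 58.8% for Pcsk1n and a median of 51.2%.

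**Figure D1:**
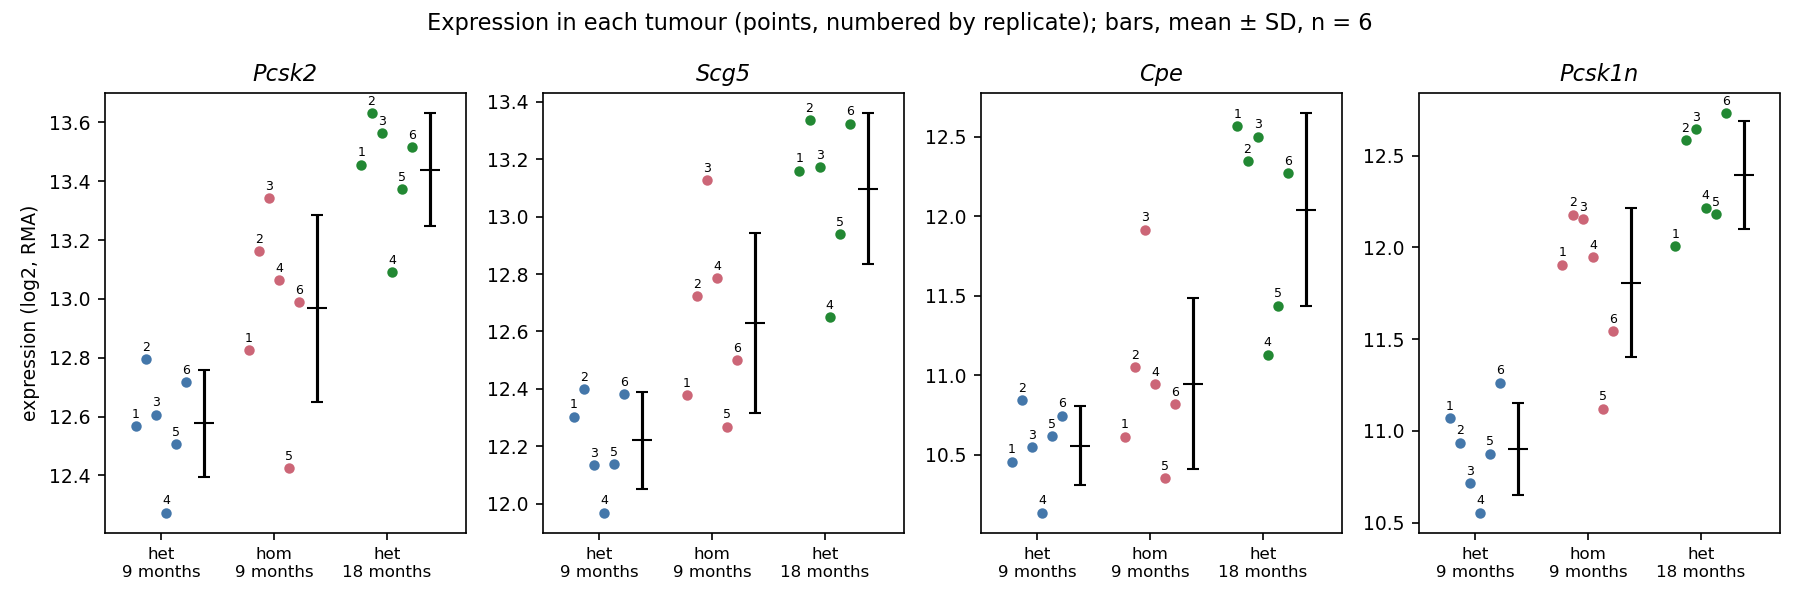
Expression (log2, RMA; y axes differ between panels and do not begin at 0) of Pcsk2, Scg5, Cpe and Pcsk1n in each tumour, with points numbered by replicate and bars for the mean ± SD of 6 tumours. Each gene was lowest on average in heterozygous tumours at 9 months and highest in those at 18 months, and Cpe of replicates 4 and 5 at 18 months lay at 11.13 and 11.44, below the other 4 of that group.

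Pcsk2, the convertase, measured 12.57, 12.79, 12.61, 12.27, 12.51 and 12.72 in replicates 1 to 6 of the heterozygous tumours at 9 months, a mean of 12.6 ± 0.18 (SD, n = 6). Homozygous tumours of that age measured 12.83, 13.16, 13.34, 13.06, 12.43 and 12.99, with replicate 5 alone inside the heterozygous range and the other 5 above it (mean 13.0 ± 0.32). Heterozygous tumours at 18 months measured 13.46, 13.63, 13.56, 13.09, 13.37 and 13.52 (mean 13.4 ± 0.19). All 6 lay above every heterozygous tumour of 9 months. Its highest values were within 1 unit of the brightest probe set of an array, so the upper end of its range was short.

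Scg5, the activating partner of the Pcsk2 enzyme, had nearly the same profile. Heterozygous tumours at 9 months measured 12.30, 12.40, 12.13, 11.97, 12.14 and 12.38 (mean 12.2 ± 0.17). Homozygous tumours measured 12.38, 12.72, 13.13, 12.79, 12.27 and 12.50 (mean 12.6 ± 0.31), with replicates 1 and 5 inside the heterozygous range. At 18 months the values were 13.16, 13.34, 13.17, 12.65, 12.94 and 13.32 (mean 13.1 ± 0.26). The older tumours did not overlap the younger heterozygous ones, and replicate 4, the lowest of them, lay below 3 of the homozygous tumours.

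Cpe, the carboxypeptidase, had the largest SD of the 4 genes in homozygous tumours and at 18 months. It measured 10.45, 10.84, 10.55, 10.13, 10.62 and 10.74 in heterozygous tumours at 9 months (mean 10.6 ± 0.25) and 10.61, 11.05, 11.92, 10.94, 10.35 and 10.82 in homozygous ones (mean 10.9 ± 0.54). The homozygous and heterozygous tumours of 9 months overlapped, and homozygous replicate 3 was the highest of them. At 18 months the values were 12.57, 12.35, 12.50, 11.13, 11.44 and 12.27 (mean 12.04 ± 0.61), so that replicates 4 and 5 lay below homozygous replicate 3 and the other 4 above every tumour of 9 months.

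Pcsk1n, which encodes proSAAS, had a larger difference of means between the genotypes at 9 months than the other 3 genes. That difference, 0.91, did not pass in the main fit (limma adjusted p = 0.118). Heterozygous tumours at 9 months measured 11.07, 10.94, 10.72, 10.55, 10.88 and 11.26 (mean 10.9 ± 0.25). Homozygous tumours measured 11.91, 12.18, 12.15, 11.95, 11.12 and 11.54 (mean 11.8 ± 0.41), and 5 of 6 lay above the highest heterozygous tumour of that age. At 18 months the values were 12.01, 12.58, 12.65, 12.22, 12.18 and 12.73 (mean 12.4 ± 0.30). Here replicate 1 was the lowest of the older tumours, while the same tumour was the highest of its group for Cpe.

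The age comparison asked how heterozygous tumours at 18 months differ from those at 9 months. All 4 genes rose by limma, over a background of 21.6% of the tested genes called higher and 44.1% called in either direction. For all 4 the older tumours lay wholly above the younger, as they did for 9.07% of genes. Pcsk1n rose by 1.49 (SE 0.18, 95% interval 1.12 to 1.87, a 2.81-fold level, limma adjusted p = 0.000167) and Cpe by 1.49 (SE 0.26, 0.93 to 2.04, 2.80-fold, adjusted p = 0.000689). Scg5 rose by 0.88 (SE 0.14, 0.58 to 1.17, 1.84-fold, adjusted p = 0.000442) and Pcsk2 by 0.86 (SE 0.13, 0.58 to 1.14, 1.82-fold, adjusted p = 0.000373). Larger rises were measured for 1.53% of the tested genes in the case of Pcsk1n, 1.55% for Cpe, 5.01% for Scg5 and 5.12% for Pcsk2. The median of the 4 differences was 1.18, against -0.0045 over all tested genes. The exact two-sided permutation p of each gene was 0.00216, the smallest that the assignments of 12 arrays to groups of 6 allow (12 such tests were run, unadjusted).

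Other tissue moved with age as well. All 9 tested endothelial markers and all 6 adipocyte markers fell, as did 8 of 9 tested follicular markers, and of 9 C cell markers 4 rose and 1 fell. Of 5 nerve and glia markers 2 rose and 1 fell, with a list mean of 7.002 at 9 months and 7.47 at 18 months, of 9 fibroblast and matrix markers 2 rose and 4 fell, and of 4 parathyroid markers 1 rose and 2 fell. Of 7 skeletal muscle and 6 macrophage and leukocyte markers 1 fell in each list. The mean of the follicular list ran from 7.32 to 10.9 at 18 months and from 11.03 to 11.12 at 9 months in heterozygous tumours, and that of the endothelial list from 7.81 to 9.73 and from 9.80 to 10.1. That of the C cell list ran from 10.76 to 11.41 at 18 months and from 10.28 to 10.62 at 9 months, without overlap. The part of these cell types in the rises was not tested. Replicates 4 and 5, where Cpe was lowest at 18 months, had the highest follicular means of that group (10.9 and 10.6). They also had its lowest C cell means (10.76 and 10.94). Without these 2 arrays all 4 genes still rose, Cpe by 1.87 and Pcsk1n by 1.59, Scg5 by 1.03 and Pcsk2 by 0.96, an alternative added after the data had been seen.

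**Figure D2:**
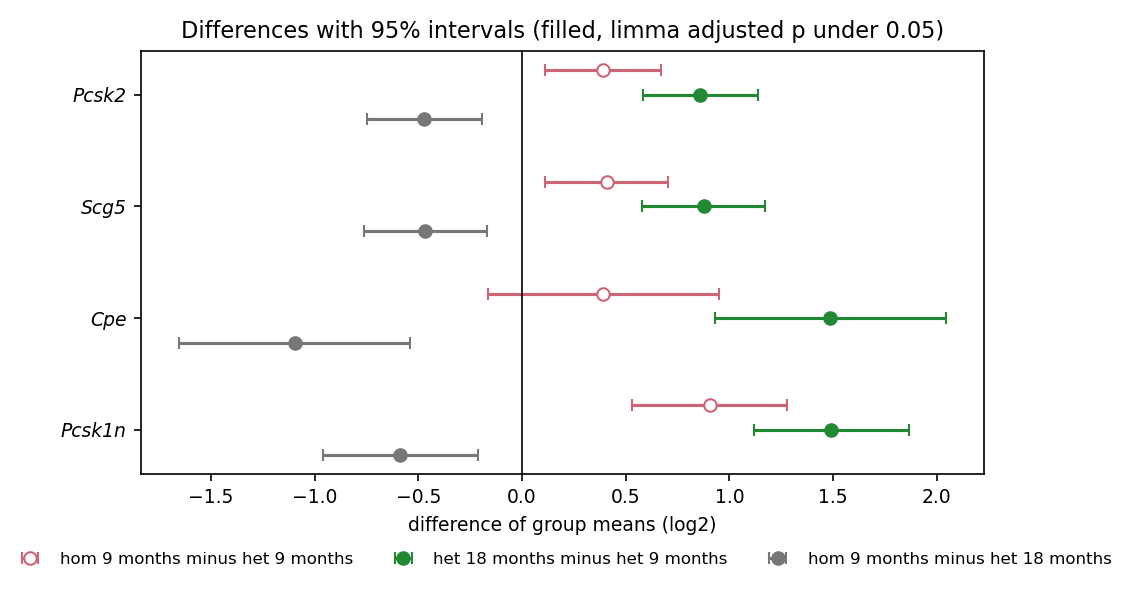
Differences of group means (log2) with 95% intervals from limma for the 4 genes in the 3 comparisons, filled where the adjusted p over all tested genes was under 0.05. The differences of age lie furthest above 0 (0.86 to 1.49), and those of genotype at 9 months are positive and open, with only the interval of Cpe reaching across 0.

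At 9 months the genotype comparison set homozygous against heterozygous tumours. The 4 genes had higher means in homozygous tumours, and 0 of 4 passed the test, as did 0% of the 11370 genes, while 3 of the 4 and 995 genes in all (8.75%) had an unadjusted limma p under 0.05. For none of the 4 did the genotypes separate wholly, as 0.651% of genes did with homozygous tumours above and 0.915% with them below. Pcsk1n differed by 0.91 (SE 0.18, 95% interval 0.53 to 1.28, limma adjusted p = 0.118), a 1.87-fold level, and ranked 7th among all tested genes by the size of the rise. The exact permutation p of that difference was 0.00433 (unadjusted). Pcsk2 differed by 0.39 (SE 0.13, adjusted p = 0.439), Scg5 by 0.41 (SE 0.14, adjusted p = 0.454) and Cpe by 0.39 (SE 0.26, interval -0.17 to 0.95, adjusted p = 0.657). Without homozygous replicate 3 the difference of Cpe was 0.20. With a variance per group, with array weights or without homozygous replicate 5, Pcsk1n passed (adjusted p of 0.0322, 0.0254 and 0.0495). The means of the marker lists overlapped between these groups. The C cell mean ran from 10.5 to 11.4 in homozygous and from 10.3 to 10.6 in heterozygous tumours, and the follicular mean from 10.12 to 11.06 and from 11.03 to 11.12, with homozygous replicate 3 at the C cell maximum and the follicular minimum. Their part in the differences was not tested.

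The third comparison set homozygous tumours at 9 months against heterozygous ones at 18 months, where genotype and age cannot be told apart. All 4 genes were lower in the homozygous tumours by limma, over a background of 13.6% of genes called lower, 16.2% called higher and 29.8% called in all. The groups overlapped for each of them. They were apart for 0.994% of genes with homozygous tumours below and 1.26% with them above. Cpe fell by 1.09 (SE 0.26, limma adjusted p = 0.0103), Pcsk1n by 0.59 (SE 0.18, adjusted p = 0.0218), Pcsk2 by 0.47 (SE 0.13, adjusted p = 0.0164) and Scg5 by 0.47 (SE 0.14, adjusted p = 0.0215). With only these 2 groups in the fit 0 of the 4 passed (adjusted p from 0.051 to 0.065), and 2 of the 4, Pcsk2 and Cpe, passed without replicate 2 of the 18-month group or without homozygous replicate 5.

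Thus the order of the group means was the same for the 4 genes, heterozygous at 9 months, homozygous at 9 months and heterozygous at 18 months. The differences between the lower neighbours in that order did not pass the limma threshold over all tested genes, although the 95% intervals of Pcsk2, Scg5 and Pcsk1n lay above 0, and the upper neighbours passed it in the fit of all 3 groups and not in the fit of those 2 groups alone. The genotype and age comparisons share the heterozygous tumours of 9 months.

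The 4 genes were then compared within arrays, as the log2 value of Pcsk2 minus that of another gene, relative to the mean of heterozygous tumours at 9 months. This shows unequal change of 2 probe sets and is given without a test. The distance between Pcsk2 and Scg5 averaged -0.019 ± 0.14 (SD, n = 6) in homozygous tumours and -0.016 ± 0.10 at 18 months, and it ran from -0.20 to 0.13 over the 18 tumours.

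Cpe departed from Pcsk2 in some tumours and not in others. Pcsk2 minus Cpe was -1.13, -0.74, -0.96 and -0.78 in replicates 1, 2, 3 and 6 at 18 months, and -0.059 and -0.087 in replicates 4 and 5. Homozygous replicate 3 lay at -0.59, the other 5 homozygous tumours between 0.055 and 0.19, and heterozygous tumours of 9 months between -0.13 and 0.12. The 5 tumours in which Cpe was raised beyond Pcsk2 were those highest on the first principal component. They were also the 5 lowest of the 18 for the mean of the follicular list (7.32 to 10.1, against 10.6 to 11.1). The same tumours were the 5 highest of the 18 for the mean of the C cell list (11.1 to 11.4, against 10.3 to 10.9). The part of either cell type in this was not tested.

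Pcsk1n departed from Pcsk2 along other lines. Pcsk2 minus Pcsk1n was -0.75, -0.69, -0.48, -0.56, -0.37 and -0.23 in homozygous replicates 1 to 6, below every heterozygous tumour of 9 months (-0.22 to 0.22). At 18 months it ran from -0.89 to -0.23, also below all of these. Its mean was -0.52 ± 0.20 in homozygous tumours and -0.63 ± 0.24 at 18 months. Homozygous replicate 6 and 18-month replicate 1 lay just below the lowest heterozygous tumour, replicate 6 (-0.2305 and -0.2265, against -0.2205). Scg5 minus Pcsk1n, taken in the same way, overlapped at 9 months, from -0.85 to -0.17 in homozygous and from -0.20 to 0.14 in heterozygous tumours. How often other pairs of genes separate the groups was not counted.

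**Figure D3:**
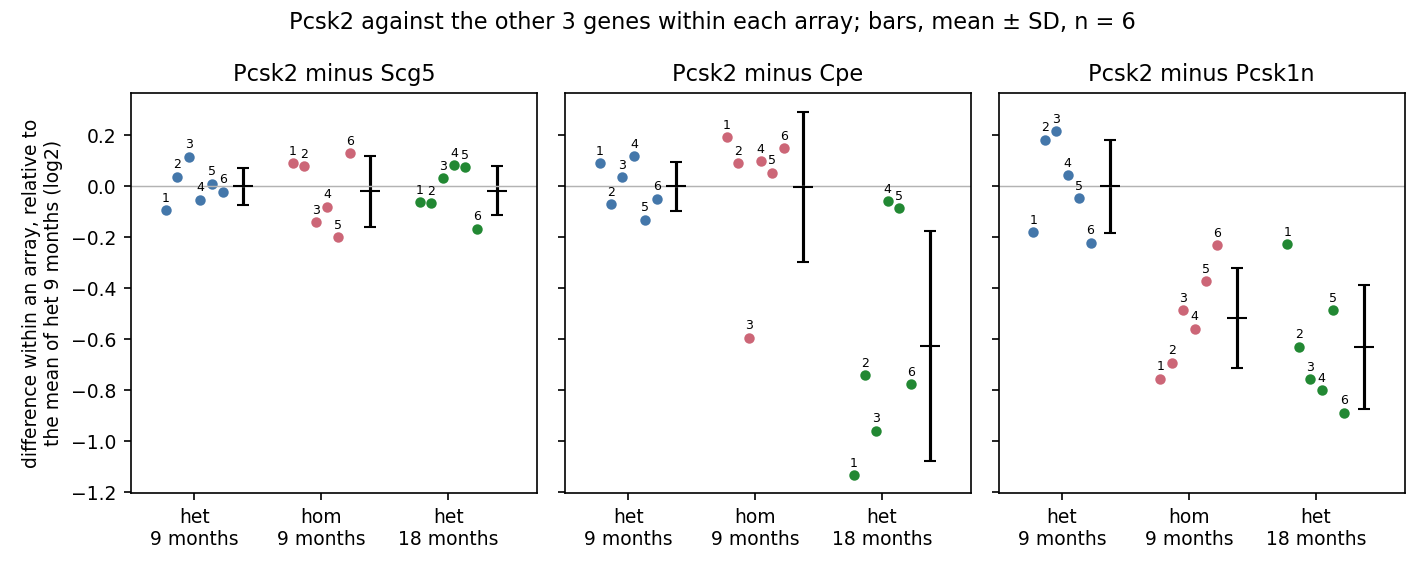
Log2 value of Pcsk2 minus that of Scg5, Cpe or Pcsk1n within each array, relative to the mean of heterozygous tumours at 9 months, with points numbered by replicate and bars for the mean ± SD of 6 tumours. The distance to Scg5 stays between -0.20 and 0.13, and that to Cpe drops to between -0.59 and -1.13 in 5 tumours. That to Pcsk1n is lower in every homozygous and every 18-month tumour than in the heterozygous tumours of 9 months, by a narrow gap (-0.2305 and -0.2265 against -0.2205 at the closest).

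Tumours that were high for one of the genes within their group tended to be high for the others. Group means were subtracted, and the 6 pairs were compared over 18 arrays, with permutation within groups (100000 resamples, two-sided, adjusted over the 6 pairs). Pcsk2 and Scg5 correlated at r = 0.91 (Spearman's rho 0.89; permutation p of 1e-05 for r, the smallest these resamples can give, and 5e-05 for rho, adjusted p of 6e-05 and 0.00015). Without the 2 arrays farthest from the median of Pcsk2, r was 0.89. Within the groups of 6 the values of r were 0.91 in heterozygous tumours at 9 months, 0.90 in homozygous ones and 0.95 at 18 months.

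Scg5 and Cpe correlated at r = 0.90 (rho 0.82, permutation p of 4e-05 and 0.00018, adjusted p of 8e-05 and 0.00036), or 0.84 without the 2 farthest arrays, and Pcsk2 and Cpe at r = 0.84 (rho 0.79, permutation p of 2e-05 and 4e-05, adjusted p of 6e-05 and 0.00015), or 0.79 without them. The weakest relation was that of Cpe and Pcsk1n, at r = 0.56 (rho 0.53, permutation p of 0.035 and 0.036, adjusted p of 0.035 and 0.036), or 0.52 without the 2 farthest arrays. In that pair r was 0.38 within the 18-month group, where replicate 1 was highest for Cpe and lowest for Pcsk1n. Pcsk1n correlated with Pcsk2 at r = 0.77 (rho 0.72, permutation p of 0.0013 and 0.0031, adjusted p of 0.002 and 0.0037) and with Scg5 at r = 0.72 (rho 0.73, permutation p of 0.0026 for each, adjusted p of 0.0031 and 0.0037). Without the 2 farthest arrays these were 0.64 and 0.67. Heterozygous replicate 4 of 9 months and homozygous replicate 5 were the lowest of their groups for all 4 genes.

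**Figure D4:**
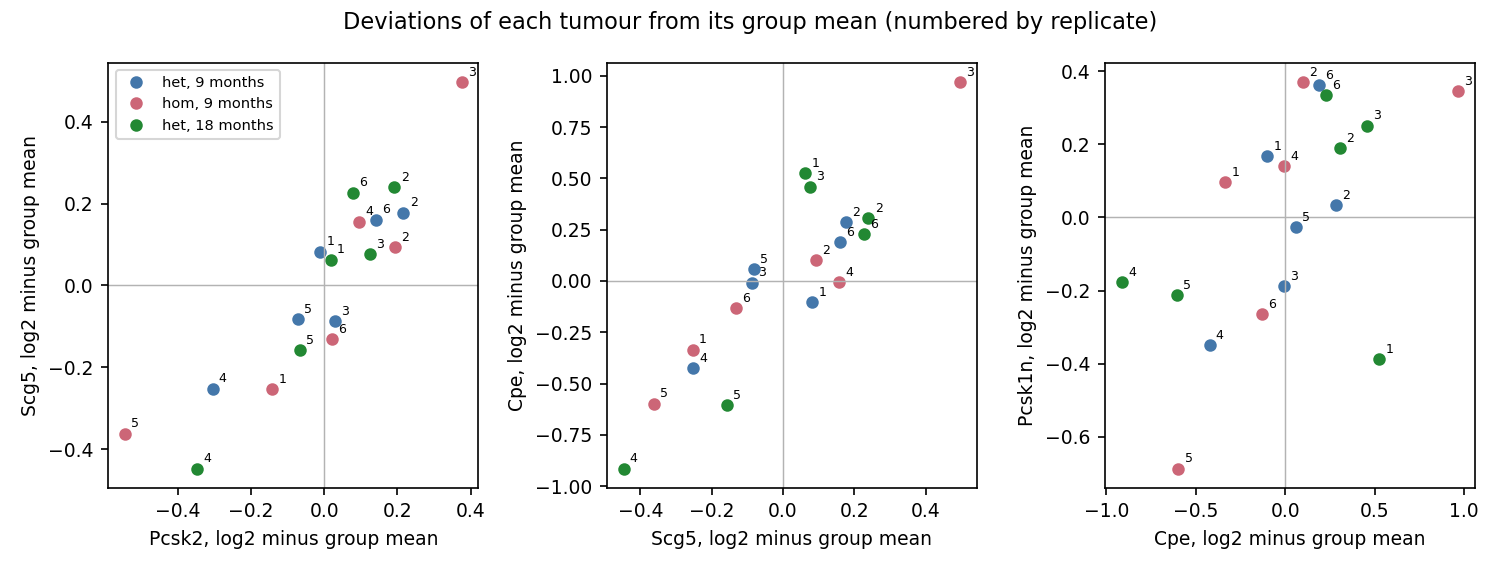
Deviation of each tumour from its group mean (log2) for Scg5 against Pcsk2, Cpe against Scg5 and Pcsk1n against Cpe, with colours for the 3 groups and points numbered by replicate. The points of the first panel lie close to a line (r = 0.91), and those of the last scatter (r = 0.56), with replicate 1 of the 18-month group at the lower right.

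Many other genes shared these profiles, and the likeness of the 4 genes to each other is to be read against them. By Pearson's r over the 18 arrays with group means removed, the 5 genes most like Pcsk2 were Trpc5 (0.97), Chgb (0.94), Ina (0.92), Fut2 (0.92) and Abr (0.92), and Scg5 was 10th among 11369 genes. Those most like Scg5 were Resp18 (0.97), Ina (0.96), Pkib (0.95), Isg20 (0.95) and Fbxl16 (0.95), with Pcsk2 at rank 74. Those most like Cpe were Phyhipl, Celf3, Cadps, Cacna2d2 and Snap91 (0.98 each), with Scg5 at rank 343 and Pcsk2 at rank 709. For Pcsk1n they were Calca (0.82), Dexi (0.81), Pcp4 (0.80), Cyp2r1 (0.80) and Slc25a23 (0.78), with Pcsk2 at rank 10 and Cpe at rank 280. In the other direction Pcsk1n was at rank 267 for Pcsk2, 1006 for Scg5 and 2582 for Cpe. An r of at least 0.9 was reached by 339 genes with Cpe, 99 with Scg5, 14 with Pcsk2 and 0 with Pcsk1n. The marker lists varied between tumours of a group, the follicular mean from 7.32 to 10.9 at 18 months for example, and the part of this in the values of r was not tested.

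Related genes were then read from lists, described by counts and medians beside the 21.6% of all genes called higher and 22.4% called lower with age. The lists go by family or theme, and not every listed gene is a step of the route. Of the other subtilisin-like convertases 6 of 8 had a named probe set. Of these 1 rose, 2 fell and 3 did not pass, with a median of -0.11. Furin, the convertase of the Golgi that acts in most cells, rose by 0.63 (SE 0.10, limma adjusted p = 0.000364), whereas Pcsk5 fell by 1.49 (SE 0.33, adjusted p = 0.00208) and Mbtps1, a protease that activates sterol regulatory factors, by 0.19 (SE 0.06). The rise of Pcsk2 was thus shared with Furin and not with Pcsk4, Pcsk6 and Pcsk7, which differed by -0.12, -0.09 and -0.03 and did not pass.

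Of the other carboxypeptidases 7 were tested, 0 rose, 4 fell and 3 did not pass, with a median of -0.32. Cpd, the carboxypeptidase of the trans-Golgi network, fell by 0.32 (SE 0.07, limma adjusted p = 0.00178). Cpa4 fell by 1.56 (SE 0.52), Aebp1 by 0.68 (SE 0.27) and Cpxm1 by 0.31 (SE 0.12), with adjusted p from 0.0228 to 0.0471. In 9 of the 18 fits that left out an array, and without a filter, with quantile normalization or with only the compared groups, 2 of the 7 passed.

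The list named amidation and N-terminal processing, which also holds other peptidases, was split, with 6 of 9 genes risen and 3 fallen. Pam, the enzyme that amidates calcitonin and other peptides, rose by 0.80 (SE 0.13, limma adjusted p = 0.000496), from 13.0 to 13.8. Qpctl, which forms N-terminal pyroglutamate in the Golgi, rose by 0.54 (SE 0.08), and the endothelin-converting enzymes Ece1 and Ece2 by 0.46 (SE 0.07) and 0.71 (SE 0.12). Enpep (1.09) and Qpct (1.03) rose by more than these. The 3 that fell, chosen like Enpep and Qpct after their values were seen, were Dpp4 (-1.45), Anpep (-1.24) and Mme (-1.19).

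Of the granins and prohormones, the substrates of the route, 16 of 23 were tested, 7 rose, 0 fell and 9 did not pass, with a median of 0.55. Chgb, chromogranin B, rose by 1.18 (SE 0.18, limma adjusted p = 0.000384), Scg3, a granin that binds granule membranes, by 1.39 (SE 0.23), Adm, the precursor of adrenomedullin, by 0.94 (SE 0.14) and Calca by 0.24 (SE 0.05, near the top of the scale). Of the proton pump, which acidifies granules and so permits the Pcsk2 and Cpe enzymes to work, 12 of 17 subunits rose, 0 fell and 5 did not pass, and their differences were small, with a median of 0.36. The accessory subunit Atp6ap1 rose by 0.71 (SE 0.13, limma adjusted p = 0.000664), and of the membrane sector Atp6v0b rose by 0.60 (SE 0.12), Atp6v0a1 by 0.57 (SE 0.12) and Atp6v0c by 0.48 (SE 0.08).

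Of the granule membrane and exocytosis genes 15 were tested, 12 rose and 3 fell, with a median of 1.01. Ptprn2, a phosphatase-like protein of the granule membrane, rose by 1.55 (SE 0.26), Cadps, a priming factor of dense-core granules, by 1.51 (SE 0.24), Unc13a, a priming factor of vesicles, by 1.29 (SE 0.21) and Rph3al, a Rab effector, by 1.08 (SE 0.16), with limma adjusted p from 0.000275 to 0.000528. Those that fell, chosen after their values were seen, were Sytl4 (-1.55), Vps54 (-0.28) and Rab3d (-0.22). Of the neuroendocrine transcription factors 10 were tested, 5 rose, 2 fell and 3 did not pass. Foxa2 rose by 1.57 (SE 0.26), Isl1 by 1.29 (SE 0.25), Myt1 by 1.28 (SE 0.21) and Creb3l1, a membrane-bound factor of secretory cells, by 0.82 (SE 0.13). The 2 that fell, chosen after their values were seen, were Rest, a repressor of neuronal genes (-1.31), and Nkx2-1 (-0.37).

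**Figure D5:**
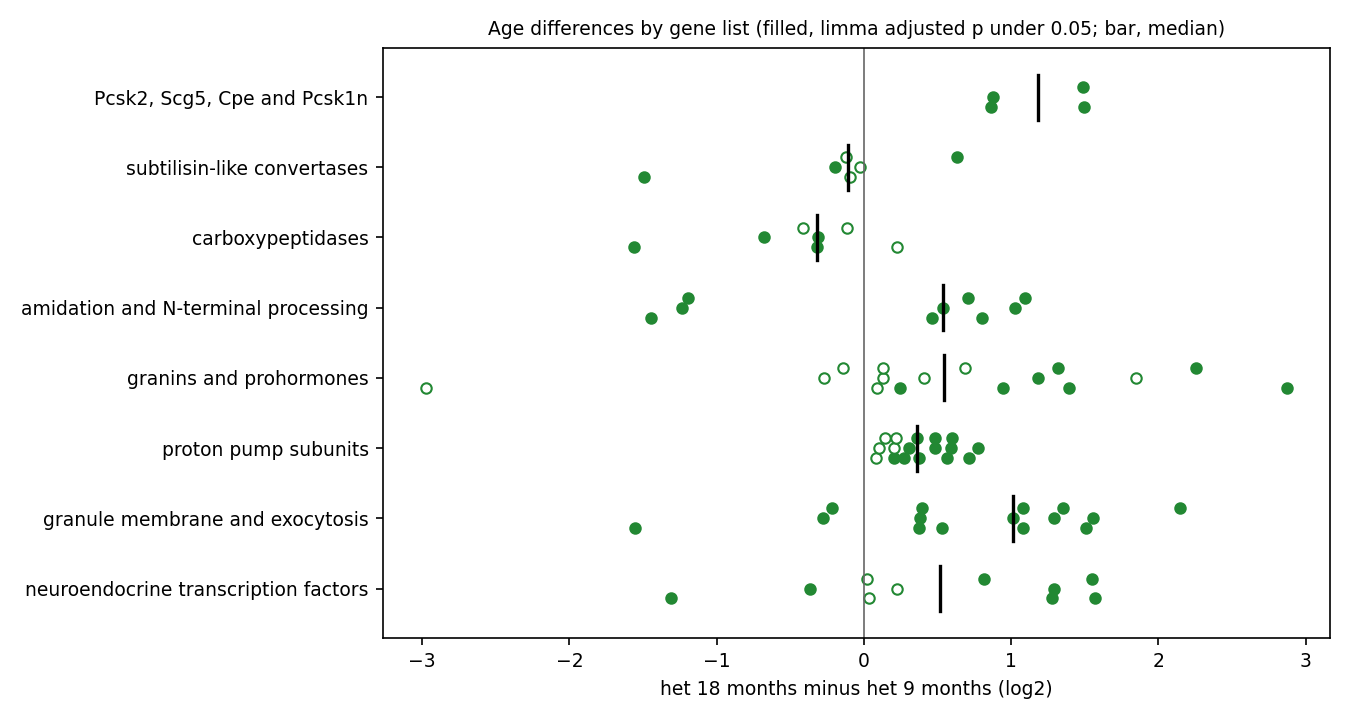
Difference between heterozygous tumours at 18 and 9 months (log2) for each tested gene of the 4 processing genes and 7 gene lists, filled where the limma adjusted p was under 0.05, with a bar at the median of each row; the vertical scatter has no meaning. The medians lie at 1.18 for the 4 genes and 1.01 for granule membrane and exocytosis genes, and below 0 for the other convertases (-0.11) and carboxypeptidases (-0.32).

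Between the genotypes at 9 months 0 genes of these 7 lists passed by limma. Counts with an unadjusted limma p under 0.05 ran from 0 of 17 proton pump subunits to 5 of 15 granule membrane and exocytosis genes. Among all tested genes 8.75% had such a p. The medians of the lists ran from -0.12 for carboxypeptidases to 0.26 for granule membrane and exocytosis genes. The 4 processing genes had a median of 0.40 there, against 0.0022 over all tested genes.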

How the data were processed

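The values deposited by the authors are log2 expression values of 29214 probe sets on 18 arrays, and the submitters' processing notes name RMA and, as software, Affymetrix Expression Console (version 1.3.0.187). Genome build and filters are not given in the sources used here. Total RNA was amplified and biotin-labelled with Nugen kits, per the labels' protocols. The platform annotation named 1 gene for 15310 probe sets, several for 323 and none for 13581.

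For each gene the probe set of highest mean was used, and 11370 genes at or above the 30th percentile of probe set means (6.32) were tested. A model of the 3 group means was fitted to all arrays with limma 3.58.1 in R 4.3.3, and Benjamini-Hochberg adjusted p-values under 0.05 over all tested genes were called. SEs, intervals and adjusted p-values of single genes come from this fit. Tests were two-sided. The fit was tested on simulated arrays with known changes. Their noise was drawn for each gene on its own, whereas genes of the tumours varied together. False calls under such shared variation were therefore not tested. Precision is limited by the number of arrays, which carry no sequencing depth.

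The genes, lists and tests were chosen with earlier results of these data known. From each list up to 4 called genes with the smallest p with age were named, and for each of the 4 genes the 5 most alike. Replicate numbers were not taken to pair samples, since each array has its own animal code. Same-numbered arrays of different groups correlated at -0.29 to 0.35 after group means were removed. Arrays of different numbers were not compared in this way, so the range cannot decide whether numbers pair samples.

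Alternatives were no filter or a 50th percentile filter, quantile normalization, median centring, array weights, a trended and robust variance prior, only the compared groups, the mean over probe sets, the replicate number as a block and leaving out each array. Chosen later, with the data already seen, were leaving out 18-month replicates 4 and 5, with or without homozygous replicate 3, and a variance per group. RefSeq sequences (GRCr8) were matched by gene ID, 4 of 4 genes.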

Additional observations from a re-analysis of the deposited data

Results flagged for a closer look

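In 57 sets of 6 tumours (the 4 genes, their within-array differences and the marker lists, in each group) a value far from the other 5 was found 7 times, where chance gives about 1 in 20. Homozygous replicate 3 accounted for 5 of these. Its Pcsk2 minus Cpe was -0.59 relative to heterozygous tumours at 9 months, against 0.055 to 0.19 in the other 5, and its Scg5 minus Cpe was -0.45, against 0.0098 to 0.255. In the same tumour the mean of C cell markers was 11.4 (10.5 to 10.7 in the others), that of follicular markers 10.1 (10.8 to 11.1) and that of nerve and glia markers 7.43 (6.88 to 7.04). Heterozygous replicate 1 of 9 months had a parathyroid marker mean of 9.34, against 11.6 to 12.4 in the others, and a macrophage and leukocyte mean of 8.06, against 7.71 to 7.79. None of the 12 sets of values of single processing genes held such a value.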

How the results depend on the processing

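With age the 4 genes kept their direction and passed in all 120 refits (30 settings for each of 4 genes), and no refit of the 4 genes reversed a direction in any comparison. For the genotype 117 refits stayed short of the threshold and 3 passed, all of Pcsk1n: 0.83 with array weights, 0.91 with a variance per group and 1.04 without homozygous replicate 5. Over all fits without an array the genotype difference of Pcsk1n ranged from 0.83 to 1.04. In the third comparison 109 of 120 passed. With only the compared groups Cpe (-1.09), Pcsk1n (-0.59), Pcsk2 (-0.47) and Scg5 (-0.47) did not, nor did Pcsk1n with a variance per group (-0.59). Without an array Pcsk1n ranged from -0.66 to -0.45 and lost its call without 18-month replicates 2 or 3 or homozygous replicates 5 or 6, and Scg5 ranged from -0.57 to -0.39 and lost it without 18-month replicate 2 or homozygous replicate 5. The number of the 4 genes called was 0 to 1 for the genotype and 2 to 4 in the third comparison over the fits without an array, 1 for the genotype with array weights or with a variance per group, and 0 in the third comparison with only the compared groups. The fit with the replicate number as a block (replicate block) changed no call of the 4 genes, with Cpe at an adjusted p of 0.000618 by limma with age, and it raised the carboxypeptidases called in the third comparison from 1 to 3.

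Counts over all genes for the genotype were 0 by limma and 25 with a variance per group, 118 with array weights, 24 with only the compared groups, 7 without 18-month replicates 4 and 5, 4 without these and homozygous replicate 3, and 0 to 2 without an array. In the third comparison 3392 genes were called, 708 with only the compared groups, 5392 without the 2 arrays, 5896 without the 3 arrays, and 2116 (without 18-month replicate 2) to 4702 (without replicate 4) over the fits without an array. With age the carboxypeptidases called fell from 4 to 2 with quantile normalization, no filter or only the compared groups, and ranged from 2 to 4 without an array. For the genotype 1 granule membrane and exocytosis gene was called with array weights. In the third comparison the fit with only the compared groups called 1 gene of amidation and N-terminal processing (6 by the main setting), 1 granin or prohormone (5), 2 granule membrane and exocytosis genes (11), 2 neuroendocrine transcription factors (6), 1 proton pump subunit (10) and 1 subtilisin-like convertase (3). There array weights called 4 carboxypeptidases and 9 granins and prohormones. A variance per group called 6 proton pump subunits. Without the 2 arrays 4 carboxypeptidases, 10 granins and prohormones and 16 proton pump subunits were called, and without the 3 arrays 4, 9 and 17. Without an array the carboxypeptidases ranged from 1 to 4, granule membrane and exocytosis genes from 7 to 13 and proton pump subunits from 4 (without 18-month replicate 2) to 15 (without homozygous replicate 3). Of 810 refits of counts, 748 stayed within 1.5 times. The cause of these shifts was not tested. Fits with only the compared groups hold fewer arrays and use the spread of those groups alone. In them the SE of Cpe was 0.22 for the genotype, 0.24 with age and 0.30 in the third comparison, against 0.26 in the main fit. Centring and quantile normalization moved the median of all genes by at most 0.025. The highest values of Pcsk2 and Calca lay near the upper end of the signal, which limits the size of a rise that can be measured there.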
